A study of Mus musculus with 12 samples.

Results

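Described here are the messages of 10 mouse genes, *Irak1*, *Irak2*, *Irak3*, *Irak4*, *Ikbkb*, *Chuk*, *Ikbkg*, *Tbk1*, *Ikbke* and *Btrc*, which code for the IRAK kinases, the IKK complex, the kinases TBK1 and IKK-epsilon, and the F-box protein beta-TrCP. They were chosen by gene symbol, as kinases and the ligase subunit linked to phosphorylation and degradation of Regnase-1, the RNase coded by *Zc3h12a*, and of the NF-kappaB inhibitors. All 10 were found among the 12850 genes listed, and all 10 passed the filter on low values, so none was lost.

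RNA-seq was performed on thioglycollate-elicited peritoneal exudate cells (PECs), the cells that gather in the mouse peritoneal cavity after an irritant is injected, from C57BL/6 mice. PECs were WT or *Zc3h12a* S513A/S513A (S513A), a CRISPR-Cas9 knock-in in which Regnase-1 lacks a serine that is phosphorylated after stimulation. The knock-in is present in every cell of the animal. All mice received 2 ml of 4% thioglycollate 3.5 days before collection, and PECs were then cultured and given 100 ng/ml of LPS, a component of bacterial cell walls. Stimulation lasted 0, 4 or 8 hr. Each of the 6 groups of genotype and time had 2 libraries, 12 in all, made from polyA RNA. Nothing in the sources used here says that the libraries of a group came from separate animals, so the p-values measure the spread between libraries, which may be technical.

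Reads on the listed genes numbered from 9525979 to 12439960 per library, and the values are log2 CPM (log2 of the reads scaled to library size as CPM, with 0.5 read added to each count). Elicited exudate holds mostly macrophages, and all 10 macrophage markers were listed, with a summed level between 1.75e+04 and 2.87e+04 CPM. Of 10 neutrophil markers 4 were listed, with *S100a9*, *Ly6g*, *Cxcr2*, *Retnlg*, *Ngp* and *Elane* absent from the list, and their summed level was 154 to 173 CPM at 0 hr, 301 to 383 CPM at 4 hr and 492 to 602 CPM at 8 hr. The part of this difference in the results on LPS was not tested. Eosinophil markers (2 of 5 listed, without *Epx*, *Prg2* and *Ear1*) summed to 15.3 to 18.5 CPM at 0 hr, 8.02 to 10 CPM at 4 hr and 3.62 to 4.58 CPM at 8 hr, and dendritic cell markers (4 of 5 listed, without *Xcr1*) to 2.37 to 3.23, 5.58 to 7.54 and 8.28 to 10.4 CPM. Their part in the results on LPS was not tested either. B cell, T cell, mast cell and mesothelial markers each summed to at most 9.78 CPM, and none of the 5 erythroid markers was listed. In bulk RNA a gene's lower level in each cell cannot be told apart from fewer cells that express it. All 6 genes of an LPS check list (*Il6*, *Il1b*, *Il12b*, *Tnf*, *Nos2* and *Ptgs2*) rose at 4 and at 8 hr. A substituted codon cannot be seen in gene counts, so they do not check the genotype labels.

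As background, LPS binding to TLR4 brings together MyD88 and the IRAK kinases in the myddosome, which recruits TRAF6 and activates TAK1. TAK1 activates the IKK complex, made of the catalytic subunits IKK-beta (*Ikbkb*) and IKK-alpha (*Chuk*) and the scaffold NEMO (*Ikbkg*), and IKK phosphorylates inhibitors of NF-kappaB, which beta-TrCP then recognizes for ubiquitination and proteasomal degradation. Regnase-1 is phosphorylated and handed to beta-TrCP in the same way. TBK1 and IKK-epsilon are related kinases that lie in the TRIF branch of TLR4 signaling and phosphorylate the interferon regulatory factors.

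The first question was how much of this machinery moved, as message, with LPS. At 4 hr, averaged over both genotypes, 7 of the 10 genes rose, 1 fell and 2 did not pass the test (limma, adjusted p under 0.05). Of all 11885 genes tested, 29.1% rose and 26.7% fell (55.8% called in either direction). At 8 hr, 6 rose, 1 fell and 3 did not pass, against 24.5% of all genes higher and 21.6% lower (46.1% called). Between 4 and 8 hr, 1 rose and 4 fell, against 12.8% of all genes higher and 12.8% lower (25.6% called). The log2 fold changes of the 10 genes had a median of 0.63 at 4 hr and 0.61 at 8 hr, beside 0.017 and -0.001 for all genes tested. With this many genes called, a call by itself is common, and the sizes below carry more of the information. The 10 genes spread widely, from *Irak3*, which stood at position 372 of 11885 genes ordered from the largest rise at 4 hr, to *Irak4*, which stood at position 8716.

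**Figure D1:**
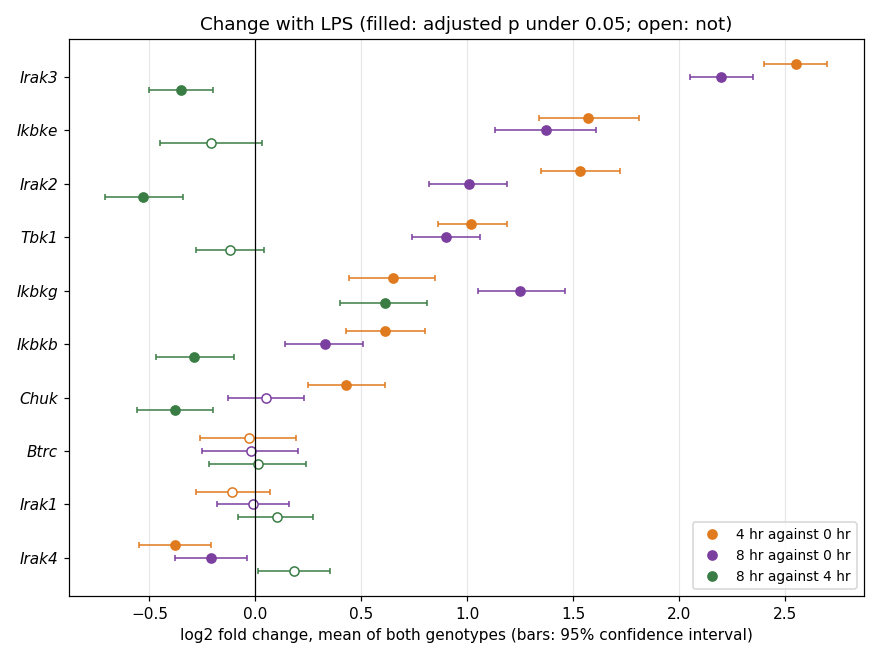
Log2 fold change of each gene with LPS on the horizontal axis, averaged over both genotypes, with 95% confidence intervals as bars. *Irak3* lies farthest to the right at 2.55 (4 hr) and 2.20 (8 hr), *Ikbkg* has an 8 hr value (1.25) well above its 4 hr value (0.65), and the intervals of *Btrc* and *Irak1* include 0 at each time.

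Among the IRAK kinases, *Irak3* changed the most. *Irak3* codes for IRAK-M, a family member that lacks strong kinase activity and is known as a brake on TLR signaling in macrophages. It lies on chromosome 10 (120141648 to 120202130, minus strand, GRCm38). Its level was 52.6 and 46.2 CPM in the WT libraries at 0 hr and 50.6 and 51.6 CPM in the S513A libraries. At 4 hr it was 308 and 311 CPM in WT and 284 and 276 CPM in S513A. At 8 hr it was 233 and 228 CPM in WT and 232 and 229 CPM in S513A. The 3 times did not overlap in any library. *Irak3* rose by 2.55 on the log2 scale at 4 hr (SE 0.07, 5.87-fold, adjusted p = 3.03e-10) and by 2.20 at 8 hr (SE 0.07, 4.6-fold, adjusted p = 1.37e-09). From 4 to 8 hr it fell by 0.35 (SE 0.07, adjusted p = 0.00344). Its exons share 192 bases with *Tmbim4* on the other strand. *Tmbim4* rose by 0.57 at 4 hr (SE 0.18, adjusted p = 0.0186).

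*Irak2*, a second-wave kinase that sustains TRAF6 signaling, lies on chromosome 6 (113638467 to 113695026, plus strand). Its log2 CPM was 5.85 and 5.80 in WT and 5.74 and 5.88 in S513A at 0 hr. It was 7.25 and 7.46 in WT and 7.43 and 7.26 in S513A at 4 hr. At 8 hr it was 6.69 and 6.64 in WT and 7.07 and 6.88 in S513A. The 3 times did not overlap, with 8 hr between the other two. *Irak2* rose by 1.53 at 4 hr (SE 0.08, adjusted p = 6.93e-08), and fell by 0.53 from 4 to 8 hr (SE 0.08, adjusted p = 0.00113), which left it 1.01 above 0 hr (SE 0.08, adjusted p = 2.56e-06).

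*Irak1* and *Irak4* code for the kinases of the first step, where IRAK4 phosphorylates IRAK1, and neither rose. *Irak1*, on chromosome X (74013914 to 74023918, minus strand), had a log2 CPM of 6.73 and 6.80 in WT and 6.64 and 6.89 in S513A at 0 hr. The values were 6.66 and 6.83 in WT and 6.57 and 6.57 in S513A at 4 hr, and 6.63 and 6.72 in WT and 6.87 and 6.80 in S513A at 8 hr. The times overlapped. The log2 fold change of *Irak1* was -0.11 at 4 hr (95% interval -0.28 to 0.07, adjusted p = 0.27) and -0.01 at 8 hr (-0.18 to 0.16, adjusted p = 0.936). With quantile scaling *Irak1* was called lower at 4 hr (-0.38, adjusted p = 0.00199), as it was with library totals as the scale (-0.36, adjusted p = 0.00478), which moved the median of all genes to -0.24.

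*Irak4*, on chromosome 15 (94543643 to 94581815, plus strand), had a log2 CPM of 5.52 and 5.43 in WT and 5.37 and 5.48 in S513A at 0 hr. At 4 hr it was 5.14 and 5.24 in WT and 5.02 and 4.86 in S513A, with all 4 libraries under all 4 of 0 hr. At 8 hr it was 5.14 and 5.16 in WT and 5.37 and 5.29 in S513A, and the S513A libraries lay close to those of 0 hr. *Irak4* fell by 0.38 at 4 hr (SE 0.08, 0.766-fold, adjusted p = 0.00143). At 8 hr it was lower by a log2 fold change of -0.21 (SE 0.08, adjusted p = 0.0464). That call was lost when any single library of the 8 at 0 or 8 hr was left out (-0.24 to -0.18). It was also lost under the replicate block (adjusted p = 0.072), with no filter (adjusted p = 0.0501) and with no trend (adjusted p = 0.0538). *Irak4* shares 395 exonic bases with *Twf1* on the other strand, and *Twf1* rose by 0.29 at 4 hr (SE 0.07, adjusted p = 0.0033).

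**Figure D2:**
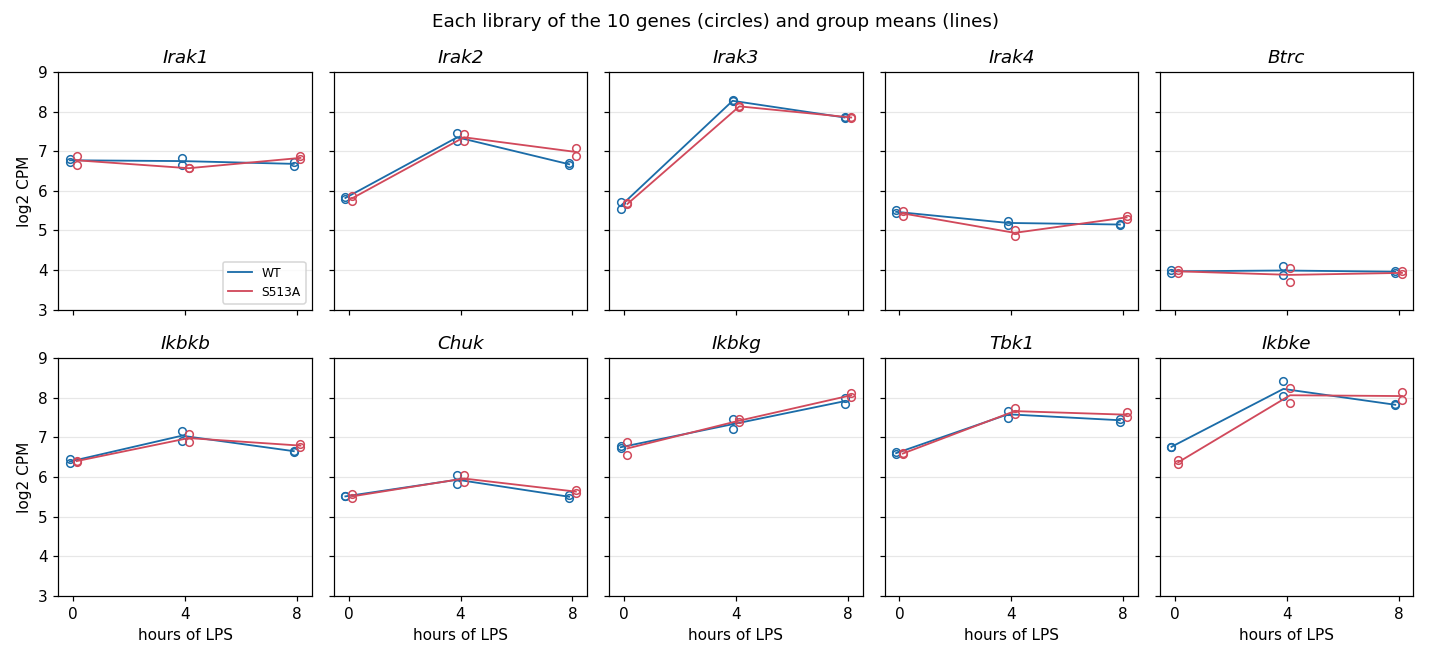
Log2 CPM of each of the 10 genes (vertical axis) against hours of LPS (horizontal axis), with a circle for each library and a line through the group means of WT (blue) and S513A (red). *Irak3* moves from at most 5.72 at 0 hr to at least 8.11 at 4 hr, *Ikbkg* rises at each step, and *Btrc* stays between 3.71 and 4.11.

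These changes reordered the IRAK messages. Levels were divided by the length of the principal transcript of each gene and given as a share of the 4 IRAK messages in a library. At 0 hr *Irak1* was the most abundant, with a median share of 36.6% (35.1 to 38), followed by *Irak2* at 22.7%, *Irak3* at 20.9% and *Irak4* at 19.8%. The last 3 lay close together, and the ranges of *Irak3* (19.5 to 22.1) and *Irak4* (19.3 to 20.5) overlapped. At 4 hr *Irak3* was first with 51.2% (50.3 to 53.5), then *Irak2* with 27.8%, *Irak1* with 14.3% and *Irak4* with 6.5%. At 8 hr the order was the same, with *Irak3* at 49.4%, *Irak2* at 23.1%, *Irak1* at 18.9% and *Irak4* at 8.85%. When the length of all annotated exons was used instead, *Irak1* was still first at 0 hr (39.6%) and *Irak3* at 4 hr (54.8%) and 8 hr (53.1%), and *Irak3* stood above *Irak2* at 0 hr.

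A ratio of 2 messages in one library needs no scaling between libraries. The per kilobase ratio of *Irak3* to *Irak1* was between 0.512 and 0.625 at 0 hr, between 3.39 and 3.76 at 4 hr and between 2.45 and 2.9 at 8 hr. It rose 6.32-fold at 4 hr and 4.63-fold at 8 hr (exact permutation test over 4 against 4 libraries, two-sided, p = 0.0286, the smallest that this design can give, adjusted p = 0.0361 over 24 comparisons of ratios). *Irak2* to *Irak1* rose 3.12-fold at 4 hr and 2.02-fold at 8 hr, and *Irak4* to *Irak1* changed 0.826-fold at 4 hr and 0.872-fold at 8 hr, each with the same exact p. *Irak3* to *Irak2* did not pass from 4 to 8 hr (1.13-fold, exact permutation p = 0.2, adjusted p = 0.218).

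In the IKK complex the 3 subunits followed different courses. *Ikbkg*, which codes for the scaffold NEMO and lies on chromosome X (74393290 to 74453854, plus strand), had a log2 CPM of 6.78 and 6.72 in WT and 6.55 and 6.89 in S513A at 0 hr. At 4 hr it was 7.22 and 7.45 in WT and 7.46 and 7.38 in S513A. At 8 hr it was 7.83 and 7.99 in WT and 8.02 and 8.11 in S513A. Each time lay above the one before in all libraries. *Ikbkg* rose by 0.65 at 4 hr (SE 0.09, adjusted p = 0.000143), by 1.25 at 8 hr (SE 0.09, 2.38-fold, adjusted p = 1.01e-06) and by 0.61 from 4 to 8 hr (adjusted p = 0.000922). Its exons share 418 bases with *G6pdx* on the other strand, and reads were mapped as unstranded. *G6pdx* changed by a log2 fold change of -0.03 at 4 hr (SE 0.08, adjusted p = 0.791) and rose by 0.34 at 8 hr (SE 0.08, adjusted p = 0.00407), with 1843 to 3408 reads per library beside 1065 to 3012 for *Ikbkg*.

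*Ikbkb*, coding for the kinase that phosphorylates the NF-kappaB inhibitors, lies on chromosome 8 (22659212 to 22706589, minus strand). Its log2 CPM was 6.34 and 6.45 in WT and 6.41 and 6.38 in S513A at 0 hr. At 4 hr it was 6.90 and 7.17 in WT and 7.08 and 6.88 in S513A, and at 8 hr 6.66 and 6.63 in WT and 6.84 and 6.75 in S513A. The 3 times did not overlap. *Ikbkb* rose by 0.61 at 4 hr (SE 0.08, adjusted p = 9.96e-05) and by 0.33 at 8 hr (SE 0.08, adjusted p = 0.0084). The 8 hr call was lost with quantile scaling (0.16, adjusted p = 0.155) and with library totals (0.16, adjusted p = 0.216). From 4 to 8 hr it fell by 0.29 (SE 0.08, adjusted p = 0.0284). This call was lost with quantile scaling (-0.20, adjusted p = 0.122) and with only the libraries compared (-0.29, adjusted p = 0.0772). It was also lost without WT replicate 2 or S513A replicate 1 at 4 hr (-0.22 and -0.24). The same held without WT replicate 1, WT replicate 2 or S513A replicate 2 at 8 hr (-0.29, -0.28 and -0.26).

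*Chuk*, coding for IKK-alpha, which also acts in the alternative NF-kappaB pathway, lies on chromosome 19 (44073335 to 44107480, minus strand). Its log2 CPM was 5.52 and 5.51 in WT and 5.46 and 5.56 in S513A at 0 hr, 5.83 and 6.04 in WT and 6.06 and 5.86 in S513A at 4 hr, and 5.46 and 5.54 in WT and 5.67 and 5.59 in S513A at 8 hr. The libraries at 4 hr stood above all others, and those at 8 hr overlapped with 0 hr. *Chuk* rose by 0.43 at 4 hr (SE 0.08, adjusted p = 0.000914), a call lost with library totals (0.18, adjusted p = 0.135). It fell by 0.38 from 4 to 8 hr (SE 0.08, adjusted p = 0.006), and its log2 fold change at 8 hr was 0.05 (95% interval -0.13 to 0.23, adjusted p = 0.632).

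The ratio of *Ikbkg* to *Ikbkb* changed 1.02-fold at 4 hr (exact permutation p = 0.743) and 1.9-fold at 8 hr (exact permutation p = 0.0286, adjusted p = 0.0361). *Ikbkg* to *Chuk* rose 1.16-fold at 4 hr and 2.3-fold at 8 hr, and *Ikbkb* to *Chuk* rose 1.13-fold and 1.21-fold, all with an exact permutation p = 0.0286 (adjusted p = 0.0361). The order of the 3 levels per kilobase is not given because it depends on the transcript length used: at 0 hr the median share of *Ikbkb* was 44.8% with principal transcripts and 16.5% with all annotated exons.

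**Figure D3:**
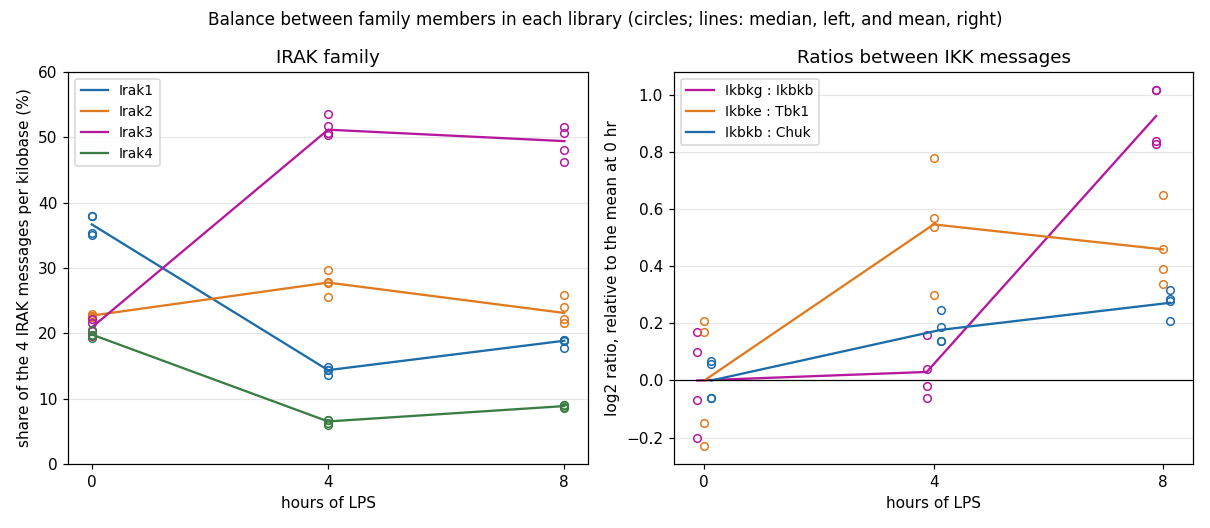
Left, share in percent of each IRAK message per kilobase against hours of LPS, with a circle for each library and lines through the medians. Right, log2 ratios between messages of the IKK and IKK-related kinases relative to their mean at 0 hr. *Irak3* passes from a median of 20.9% to 51.2%, while *Ikbkg* to *Ikbkb* is near 0 at 4 hr and higher in all 4 libraries at 8 hr.

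The IKK-related kinases both rose and were still above 0 hr at 8 hr. *Ikbke*, coding for IKK-epsilon, lies on chromosome 1 (131254343 to 131279606, minus strand). Its log2 CPM was 6.76 and 6.75 in WT and 6.42 and 6.33 in S513A at 0 hr, 8.03 and 8.41 in WT and 8.24 and 7.87 in S513A at 4 hr, and 7.82 and 7.83 in WT and 8.14 and 7.94 in S513A at 8 hr. All libraries with LPS lay above all without, and the replicates at 4 hr were up to 0.38 apart. *Ikbke* rose by 1.57 at 4 hr (SE 0.11, 2.98-fold, adjusted p = 4.28e-07) and by 1.37 at 8 hr (SE 0.11, adjusted p = 1.7e-06). The 4 to 8 hr difference was -0.21 (95% interval -0.45 to 0.03, adjusted p = 0.195), and -0.30 without WT replicate 1 at 4 hr. With the hidden factor, described below, *Ikbke* was called lower from 4 to 8 hr (-0.26, adjusted p = 0.00119).

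*Tbk1*, on chromosome 10 (121546455 to 121586787, minus strand), had a log2 CPM of 6.62 and 6.57 in WT and 6.60 and 6.59 in S513A at 0 hr. At 4 hr it was 7.49 and 7.66 in WT and 7.73 and 7.60 in S513A, and at 8 hr 7.39 and 7.47 in WT and 7.52 and 7.63 in S513A. The 4 and 8 hr libraries overlapped, and all lay above 0 hr. *Tbk1* rose by 1.02 at 4 hr (SE 0.07, 2.03-fold, adjusted p = 5.41e-07) and by 0.90 at 8 hr (SE 0.07, adjusted p = 1.88e-06). The ratio of *Ikbke* to *Tbk1* rose 1.46-fold at 4 hr and 1.38-fold at 8 hr (exact permutation p = 0.0286, adjusted p = 0.0361 for both). Which gene was higher at 0 hr depends on the transcript length used, with a median share for *Ikbke* of 47.8% by principal transcripts and 30% by all exons.

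*Btrc*, coding for beta-TrCP, lies on chromosome 19 (45363734 to 45530013, plus strand) and had the fewest reads, between 112 and 219 per library. Its log2 CPM was 3.93 and 4.00 in WT and 4.01 and 3.94 in S513A at 0 hr, 3.88 and 4.11 in WT and 4.05 and 3.71 in S513A at 4 hr, and 3.93 and 3.99 in WT and 3.98 and 3.89 in S513A at 8 hr. The times overlapped throughout. Its log2 fold change was -0.03 at 4 hr (95% interval -0.26 to 0.19, adjusted p = 0.812) and -0.02 at 8 hr (-0.25 to 0.20, adjusted p = 0.879). Its paralog *Fbxw11*, which codes for the other beta-TrCP and is not among the 10, had a log2 CPM between 6.00 and 6.11 at 0 hr and between 6.66 and 6.78 at 4 hr. *Fbxw11* rose by 0.67 at 4 hr (SE 0.07, adjusted p = 2.02e-05) and by 0.46 at 8 hr (SE 0.07, adjusted p = 0.000477).

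Promoter sequence was available for 8 of the 10 genes (RefSeq, GRCm38.p6, 250 bases before to 50 after each start, 13 promoters), and for the others, *Ikbkb* and *Btrc*, none was printed. A search on both strands for CACGTG, the E-box letters, matched 7.15% of 32851 promoters, and among the 8 genes searched those of *Irak3* and *Tbk1*, in both at base 6 of the transcript. The stretches are shown because these genes both rose, with the match in capitals, from chr10:120201575-120201604 (minus strand) and chr10:121586772-121586801 (minus strand). For *Irak3* the start used is 1 of 2 annotated and lies inside the gene. The other promoter (chr10:120202081-120202380), at the upstream end of the gene, held no match.
Irak3: ggctccctacgtCACGTGgggcccgccctg
Tbk1: cccgcactcggtCACGTGctccgtggcccg

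TGANTCA is a wider pattern than the AP-1 letters, TGACTCA or TGAGTCA, because N may be any base. It matched 7.81% of promoters, among them that of *Ikbke* and 3 of 4 annotated promoters of *Ikbkg*. The *Ikbke* match (TGAATCA) and the *Ikbkg* match 68 bases before its start (TGATTCA) do not hold the AP-1 letters. The *Ikbke* match begins 6 bases before the start and the *Ikbkg* matches 157, 36 and 68 bases before their starts. The stretches of *Ikbke* (chr1:131279552-131279580, minus strand) and of the first 2 *Ikbkg* promoters (chrX:74393123-74393151 and chrX:74424565-74424593, plus strand) are shown as genes that rose with different courses.
Ikbke: agagagagaagTGAATCAggaagtatgat
Ikbkg: ggtgaagcaagTGAGTCAcgtagaaaagc
Ikbkg: gactggtctgcTGAGTCAcagttgcccca

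The kappaB consensus matched 8.46% of promoters and, of the 8 genes searched, *Irak1* alone, a gene that did not pass the test at either time. Its overlapping annotated promoters hold 1 match (chrX:74023920-74023949, minus strand). The interferon-stimulated response element pattern, searched on both strands, matched 3.44% of promoters and none of the 13. No match overlapped another, and a match or its lack describes only the letters in these windows.
Irak1: agggcggcgcGGGACGCCCCcgtgtggcgg

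The response was next taken in each genotype alone. In WT at 4 hr, 7 genes were called, all higher (41.3% of all genes called), and in S513A 8, of which 7 were higher (43.2% of all genes). At 8 hr 6 were called in WT (34.3% of all genes) and 6 in S513A (39.9% of all genes). The differing calls were those of *Irak4* and *Ikbkb*. *Irak4* at 4 hr had a log2 fold change of -0.28 in WT (SE 0.11, adjusted p = 0.0565) and -0.48 in S513A (SE 0.11, adjusted p = 0.00428). In WT it was called lower under 5 other settings (a filter of 5 CPM, median-ratio scaling, quantile scaling, voom weights and the hidden factor, adjusted p between 0.0114 and 0.0486), so that the calls then did not differ. The hidden factor is the position of each library along the main component of the differences between replicates. That position also differs between groups, so the term takes out group differences along the component as well. At 8 hr *Irak4* was at -0.32 in WT (adjusted p = 0.0426, lost without any one of 8 libraries, WT or S513A, at 0 or 8 hr) and -0.10 in S513A (adjusted p = 0.511). The WT call was also lost under the replicate block (adjusted p = 0.0663), with no trend (adjusted p = 0.0516) and with the hidden factor (adjusted p = 0.111). *Ikbkb* at 8 hr was at 0.25 in WT (adjusted p = 0.123, but called with only the libraries compared, 0.0288, with a quality weight per library, 0.0215, and with the hidden factor, 0.00252) and 0.40 in S513A (adjusted p = 0.0216, lost without S513A replicate 1 or 2 at 0 hr or S513A replicate 1 at 8 hr). The *Ikbkb* call in S513A at 8 hr was also lost with quantile scaling (0.23, adjusted p = 0.145) and with library totals (0.31, adjusted p = 0.106). A call in one genotype and not in the other does not show a difference between them, which was tested on its own.

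That difference, the genotype by LPS interaction, was called for 0 of the 10 genes at 4 hr and 0 at 8 hr, as for all genes tested (0% at both times). With no adjustment, limma gave p under 0.05 for 0 of the 10 at 4 hr, beside 1.21% of all genes, and for 1 at 8 hr, *Ikbke*, beside 20.2% of all genes. The log2 response of *Ikbke* at 8 hr was 1.07 in WT and 1.67 in S513A, a difference of 0.60 (95% interval 0.13 to 1.08, limma unadjusted p = 0.0181, adjusted p = 0.2). With the hidden factor, which also takes out group differences along its component, the difference was 0.14. At 4 hr the smallest p was that of *Irak3*, with a response of 2.65 in WT and 2.45 in S513A (difference -0.20, 95% interval -0.50 to 0.10, limma unadjusted p = 0.172, adjusted p = 1).

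S513A against WT was also compared at each time, to ask whether the mutation moved the messages of the machinery. None of the 10 genes was called at 0 hr (0.0337% of all genes called), at 4 hr (0.0168%), at 8 hr (0.0337%) or averaged over the 3 times (0.0673%), and voom weights gave 0 in each as well. Unadjusted, limma gave p under 0.05 for 1 of the 10 genes at each time and for 0 on average, beside 7.98% of all genes at 0 hr, 7.01% at 4 hr, 12.5% at 8 hr and 6.71% on average. A count of 1 in 10 is near these shares, and the genes are named only as those with the smallest p. At 0 hr this was *Ikbke*, with a log2 CPM of 6.76 and 6.75 in WT against 6.42 and 6.33 in S513A (difference -0.39, 95% interval -0.72 to -0.05, limma unadjusted p = 0.0289, adjusted p = 0.586). Both S513A libraries lay under both WT libraries. With only the libraries at 0 hr in the model the adjusted p was 0.0431, and 693 of all genes tested were called in that fit. At 4 hr it was *Irak4* (difference -0.24, 95% interval -0.48 to -0.00, limma unadjusted p = 0.0468, adjusted p = 0.622), and at 8 hr *Irak2* (difference 0.31, 95% interval 0.05 to 0.57, limma unadjusted p = 0.0249, adjusted p = 0.395). Averaged over the times, *Irak2* had the smallest p, with a difference of 0.10 (95% interval -0.05 to 0.25, limma unadjusted p = 0.188, adjusted p = 0.868).

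At 8 hr the fitted difference was at or above 0 for 9 of the 10 genes (0.00 for *Irak3*) and -0.02 for *Btrc*, and no gene of the 10 was called. The median was 0.15 for the 10 genes and 0.011 for all genes tested, and the share of all genes at or above 0 was not counted. The libraries of a group also differed from each other along this main component, which held 67.6% of the variance between replicates, with WT replicate 2 at 4 hr, S513A replicate 1 at 4 hr and S513A replicate 1 at 8 hr on its high side. In WT at 4 hr all 10 genes were higher in that library than in the other, by 0.01 to 0.38, in S513A at 4 hr 9 of 10 were, and in S513A at 8 hr 8 of 10. The share of all genes higher in the same libraries was not counted, so these counts are not read as a trait of the 10 genes. With the hidden factor the *Ikbke* difference at 0 hr was -0.16 and the *Irak2* difference at 8 hr was 0.15. At 0 hr that term stood at 1.16 and 0.68 in WT and at -0.47 and -0.38 in S513A. These values are therefore not an adjustment for differences between replicates alone. The part of the component in the differences between genotypes was not tested further.

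**Figure D4:**
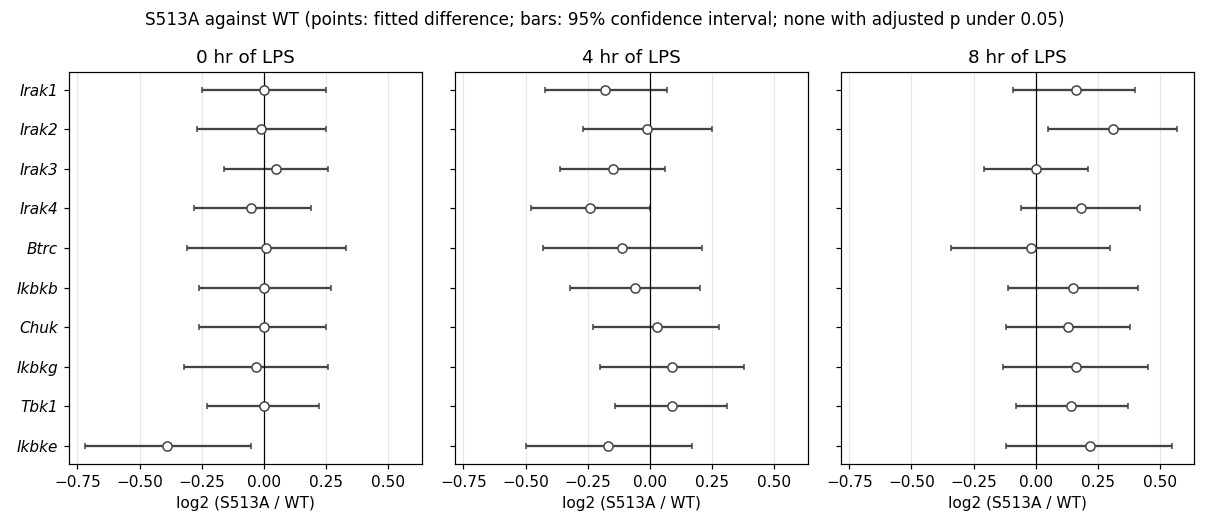
Log2 difference between S513A and WT (horizontal axis) for each gene at 0, 4 and 8 hr, with 95% confidence intervals as bars. The intervals of *Ikbke* at 0 hr (-0.72 to -0.05) and *Irak2* at 8 hr (0.05 to 0.57) lie to one side of 0, and no difference passed the adjusted threshold.

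Genes whose levels ran most alike were sought for the 5 genes whose highest and lowest group means differed by at least 1 on the log2 scale, by Pearson r over the 12 libraries. The libraries share time points and the component above, so high r values are common and no p is given. Closest to *Irak3* were *Pid1* (r = 0.998), *Cxcl3* (0.998), a neutrophil-attracting chemokine, and *Jak2* (0.997), a cytokine receptor kinase. Closest to *Irak2* were *Ets2* (0.997), *Rab11fip1* (0.996) and *Camk2d* (0.994). Closest to *Tbk1* were *Dtx3l*, *Trim30a* and *Trim12a* (0.995 each), and to *Ikbke* *Oas2*, an interferon-induced antiviral enzyme, *Fhl3* and *Itga5* (0.994 each). *Ikbkg*, with its later rise, had *Osbpl3* (0.984), *Lgals3bp* (0.982) and *Lipe* (0.982).

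Around the 10 genes, 6 lists of neighbouring pathway genes were counted in the LPS contrasts, and all their members were tested. Over all genes 29.1% rose and 26.7% fell at 4 hr (55.8% called), 24.5% rose and 21.6% fell at 8 hr (46.1% called), and 12.8% rose and 12.8% fell from 4 to 8 hr (25.6% called), and the lists are to be read against these shares. With library totals as the scale, 2179 of 11924 genes rose and 4907 fell at 4 hr, and 2022 rose and 3781 fell at 8 hr. The median of all genes was then -0.24 at 4 hr and -0.17 at 8 hr, and list values on that scale are to be read against these. Of 11 receptor and adaptor genes upstream of the IRAK kinases, 6 rose and 1 fell at 4 hr, and at 8 hr 5 rose and none fell (median log2 fold change 0.48 and 0.41). The 7 called at 4 hr are close to the 55.8% of all genes, and with library totals as the scale 5 rose and 2 fell at each time (median 0.22 at 4 hr). From 4 to 8 hr 5 fell. The largest changes at 4 hr were *Cd14*, the LPS co-receptor (3.75, adjusted p = 2.05e-09), *Myd88*, the adaptor that carries the IRAK kinases (1.67, adjusted p = 6.21e-08), and *Tirap*, which links it to TLR4 (1.13, adjusted p = 1.73e-06).

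Between the IRAK and IKK steps, 8 of 12 TRAF6, TAK1 and Pellino genes rose and 2 fell at 4 hr, 6 rose and 1 fell at 8 hr (median 0.38 and 0.22), and 2 rose and 5 fell from 4 to 8 hr, beside 55.8%, 46.1% and 25.6% of all genes called. Of all genes, 29.1%, 24.5% and 12.8% were higher. With library totals 5 rose at 4 hr (median 0.13) and 5 at 8 hr (median 0.06). *Peli1* and *Peli2* code for ubiquitin ligases that bind IRAK proteins, and they moved apart. *Peli1* rose by 3.13 at 4 hr (SE 0.08, adjusted p = 1.98e-10) and by 1.40 at 8 hr, whereas *Peli2* fell by 1.82 (SE 0.11, adjusted p = 1.69e-07) and by 1.23. *Tab2*, a TAK1 partner, rose by 1.34 at 4 hr (adjusted p = 5.13e-07). *Traf6* itself, named after its values were seen, was at 0.25 at 4 hr (SE 0.10, adjusted p = 0.0493), a call that was lost under each of 3 other scalings, with a value of -0.01 under library totals.

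Of 10 adaptors and targets of TBK1 and IKK-epsilon, 4 rose and 2 fell at 4 hr, and 4 rose and 1 fell at 8 hr (median 0.10 and 0.20), with 2 higher and 1 lower from 4 to 8 hr. The 6 called at 4 hr and 5 at 8 hr are near the 55.8% and 46.1% of all genes. With library totals 3 rose and 3 fell at 4 hr, with a median of -0.15 (-0.04 with quantile scaling), and 4 rose and 3 fell at 8 hr. *Irf7*, a substrate that drives interferon genes, rose by 2.95 at 4 hr (adjusted p = 9.07e-09) and 4.17 at 8 hr (adjusted p = 1.18e-09). *Tank* and *Azi2*, scaffolds that bind both kinases, rose by 2.23 (adjusted p = 1.07e-08) and 1.45 (adjusted p = 3.71e-08) at 4 hr.

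A list of 13 genes held parts of the SCF ubiquitin ligase in which beta-TrCP works, and partners of that ligase. Of these, 8 rose and none fell at 4 hr and 5 rose and none fell at 8 hr, by small amounts (median 0.36 and 0.15), and 1 fell from 4 to 8 hr. These counts stand beside 29.1% of all genes higher and 26.7% lower at 4 hr (55.8% called), and 24.5% higher and 21.6% lower at 8 hr (46.1% called). The largest at 4 hr were *Fbxw11* (0.67), *Ube2d3* (0.63, adjusted p = 0.000609) and *Ube2m* (0.58, adjusted p = 0.00027). Of other genes for the ligase itself, named after their values were seen, *Cul1* rose by 0.49 at 4 hr (adjusted p = 0.000101). *Skp1a* (-0.01), *Rbx1* (0.23) and *Rnf7* (0.03) did not pass at 4 hr. With library totals 4 rose at 4 hr (median 0.11) and 3 at 8 hr (median -0.01), beside medians of -0.24 and -0.17 for all genes on that scale.

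Of 8 substrates of IKK or beta-TrCP, 6 rose and 2 fell at both times, so all were called, beside 55.8% and 46.1% of all genes (median 2.57 and 1.75), and 2 rose and 5 fell from 4 to 8 hr. *Nfkb2* rose by 3.14 (adjusted p = 2.11e-09) and *Nfkbia*, which codes for the inhibitor IkappaB-alpha, by 2.84 (adjusted p = 1.17e-09) at 4 hr. *Pdcd4*, an inhibitor of translation, fell by 2.81 (adjusted p = 4.72e-08), and the other substrate that fell was *Ctnnb1*, coding for beta-catenin (-1.03), named after its values were seen. *Zc3h12a* rose by 2.80 at 4 hr (SE 0.08, 6.96-fold, adjusted p = 6.19e-10) and by 1.78 at 8 hr. Of 11 ubiquitin editors of the IKK step, 6 rose and 1 fell at 4 hr, 6 rose and 2 fell at 8 hr (median 0.53 and 0.42), and 5 fell from 4 to 8 hr. The 7 called at 4 hr are close to the 55.8% of all genes, and with library totals 6 rose and 4 fell (median 0.27). *Usp18* rose by 4.49 at 4 hr (adjusted p = 1.69e-10), *Tnip1* by 2.49 (adjusted p = 8.21e-10) and *Tnfaip3*, coding for the deubiquitinase A20, by 2.18 (adjusted p = 1.91e-09).

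**Figure D5:**
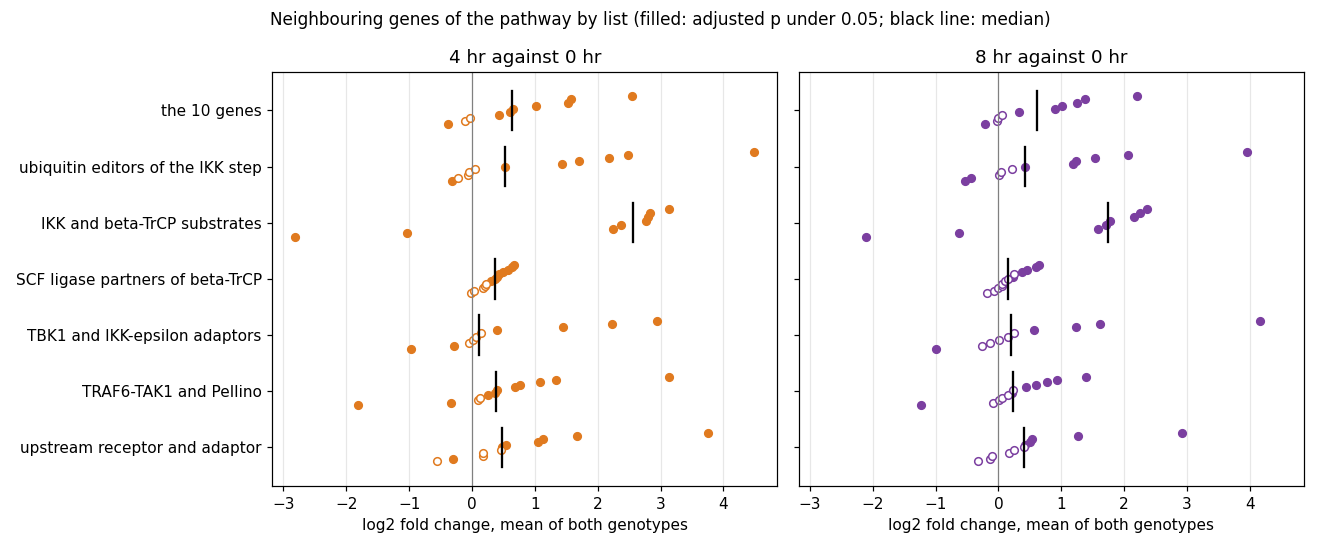
Log2 fold change at 4 hr (left) and 8 hr (right), averaged over both genotypes, of each gene in 6 lists of pathway neighbours and of the 10 genes, with the list median as a black line. The substrates of IKK and beta-TrCP have the median farthest from 0 (2.57 at 4 hr), and the genes of the SCF ligase and its partners reach no further than 0.67 at 4 hr.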

How the data were processed

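The authors mapped paired reads to mm10 with HISAT2, as unstranded, and counted them with featureCounts 1.6.3. The deposited values are log2 CPM, computed with 0.5 read added and a normalization factor per library (0.877 to 1.15). Multiplying back gave whole reads within 0.00103 read. A floor of 3 reads lies at a log2 CPM of -2.04 to -1.30, and covers counting error only.

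In R 4.3.3, limma 3.58.1 was applied to the deposited log2 values, with a mean for each of 6 groups and a trended prior, over the 11885 genes that reached 1 CPM in 2 or more libraries, two-sided, with Benjamini-Hochberg adjustment over all genes and a threshold of 0.05. The model was also run on simulated data with independent noise of the same size for every gene. Those data lack the component shared by genes between replicates, so the run does not check the model in that respect. All 10 genes are named, with the smallest p in genotype contrasts without a call, the 3 most similar genes, and the 3 largest called changes per list. The genes and lists were chosen with earlier results of these data known. Ratios used exact permutation tests (scipy 1.17.1). Positions, and lengths of APPRIS principal transcripts, are from GENCODE M21 on GRCm38, the assembly of mm10. Plots were drawn with matplotlib 3.10.9 in Python 3.11.15.

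Alternatives were no filter, a stricter filter (5 CPM on average), 1 CPM added before the log, median-ratio and quantile scaling, a replicate block, correlated libraries, no trend, a robust prior, only the libraries compared, voom weights, a quality weight per library, a hidden factor and each library left out. Library totals, a crossed block, and leaving out the 3 libraries at either end of the component between replicates were added after seeing the data.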

Additional observations from a re-analysis of the deposited data

How the results depend on the processing

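Having 2 replicates a group limits what can be called, and *Btrc* has the fewest reads. The counts of genes called with LPS stayed within 1.5 times under all alternatives run, with 8 to 9 at 4 hr, 6 to 7 at 8 hr and 4 to 7 from 4 to 8 hr. Leaving out each library in turn gave 8 to 8, 6 to 7 and 4 to 6, in WT 6 to 7 (4 hr) and 5 to 6 (8 hr), in S513A 7 to 8 and 5 to 6, and 0 to 0 between genotypes and for the interactions. Scaling bore most on small changes. Library totals moved the median of all genes to -0.24 at 4 hr, -0.17 at 8 hr and 0.07 from 4 to 8 hr, with 30.8%, 34.8% and 66.6% of calls higher (52.2%, 53.2% and 50% in the main analysis). On that scale *Irak1* was called lower at 4 hr (-0.36), as with quantile scaling (-0.38), *Chuk* was not called at 4 hr (0.18), *Ikbkb* was not called at 8 hr (0.16) or from 4 to 8 hr (-0.20), and *Irak4* was at -0.64 at 4 hr. Relative to the shifted median these were -0.12, 0.42, 0.33, -0.27 and -0.40.

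The number of genes called between S513A and WT at 0 hr became 1 (*Ikbke*) with only the libraries compared, and 1 without the 3 libraries highest or the 3 lowest on the component between replicates, and at 8 hr 2 without the 3 lowest. For the interaction at 8 hr it became 1 (*Ikbke*, adjusted p = 0.0388) with a quality weight per library, 1 without the 3 highest and 2 without the 3 lowest. The cause was not tested. Over all genes, calls between genotypes numbered 4, 2, 4 and 8 (0, 4 and 8 hr and average) and ran over the alternatives from 0 to 1259, 0 to 366, 0 to 3017 and 3 to 98, and for the 8 hr interaction from 0 to 3919. LPS calls that moved most were those at 8 hr in WT (4079, from 2488 to 6187) and from 4 to 8 hr (3043, from 2025 to 4990). Over its alternatives the adjusted p of this interaction ran from 0.00104 to 1. Values near 0 changed sign. *Chuk* at 8 hr was -0.04 with quantile scaling and -0.11 with library totals. *Btrc* at 4 hr was -0.29 with library totals (adjusted p = 0.0569), 0.02 with the hidden factor, 0.11 without the 3 lowest and -0.12 to 0.05 with a library left out. At 8 hr it was 0.00246 without the 3 lowest and -0.05 to 0.00 with a library left out. From 4 to 8 hr it was -0.01 with quantile scaling, -0.02 with the hidden factor, -0.11 without the 3 lowest and -0.08 to 0.10 with a library left out. *Irak1* at 8 hr was 0.01 without the 3 lowest and -0.07 to 0.05 with a library left out.

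Libraries with the same replicate number did not deviate together in every pair. The correlation was 0.76 for S513A at 4 and 8 hr and 0.36 for WT and S513A at 8 hr, but -0.74 for WT and S513A at 4 hr, and no label says what a number marks, so the numbers were not taken to pair the libraries. With the replicate block 8, 6 and 5 genes were called at 4 hr, at 8 hr and from 4 to 8 hr, 0 between genotypes and 0 for the interactions, and *Irak4* at 8 hr was the call lost. Crossing the numbers where they ran opposite left 7 genes called in WT at 4 hr, 6 in S513A at 8 hr and 0 between genotypes.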
